A study of Rattus norvegicus with 2 samples.

Results

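Hsd11b1 and 6 further genes of glucocorticoid metabolism and response were followed in RMT-1 clone E4, a rat mammary tumour cell line, after transient transfection with an siRNA against Pla2g4c or with a negative control siRNA. The genes were the steroid enzymes Hsd11b1 and Hsd11b2, the glucocorticoid receptor gene Nr3c1 and the receptor targets Tsc22d3, Fkbp5, Per1 and Sgk1. They were chosen by name with earlier results from the same arrays in view, among them the difference of Hsd11b1, so their values are given as a description. All 7 had a probe, out of 15159 rat genes that could be named on the array, and 6 were measured on both arrays, as were 9026 genes in all. Total RNA of each group was hybridised to 1 one-colour array, so that each group is 1 RNA sample of 1 cell line clone and no test across samples was possible. The labels name no steroid added to the culture medium, which contained fetal bovine serum.

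Glucocorticoids such as corticosterone, the main one of the rat, act through the glucocorticoid receptor, a nuclear receptor that is held by heat shock proteins and immunophilins until hormone binds it. Inside the cell the supply of active hormone is set by a pair of enzymes that work in opposite directions. Hsd11b1 encodes the reductase that regenerates active glucocorticoid from its inert 11-keto form, with reduced cofactor that H6pd supplies in the endoplasmic reticulum, and Hsd11b2 encodes the dehydrogenase that inactivates the hormone. Hsd11b1 is known for high expression in liver and fat and for its induction by inflammatory cytokines in several cell types.

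In the Pla2g4c siRNA array the signal of Hsd11b1 was 6.63-fold higher than in the control array, and that of its counterpart Hsd11b2 1.94-fold higher. Fkbp5 was 2.04-fold and Tsc22d3 1.28-fold higher, whereas Sgk1 differed by 0.04 ± 0.20 on the log2 scale and the receptor gene Nr3c1 by -0.29 ± 0.21. The genes listed as induced by glucocorticoid had unequal differences. Genes known to be repressed by glucocorticoid had a median of 1.13. Of 22 measured, 13 passed 2-fold upwards, against 2.91% of all measured genes. Most of them were known to be high on this array when the list was made, so this count is no independent evidence. The values given are differences of log2 signals, each signal first divided by its array's 75th percentile. The control array was subtracted from the Pla2g4c siRNA array. Each ± combines the errors that the scanner software gave to the signals of both arrays and holds no biological spread.

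The control array had a 75th percentile of 852 over its gene spots, 61.9% of them well above background, and the Pla2g4c siRNA array had 1105 and 63.1%. Over the 9026 measured genes, 2.91% (263) passed 2-fold upwards and 3.05% (275) downwards. The authors' deposited table put 367 and 198 past 2-fold, with a median over all genes of 0.12. With 7 spike-in RNAs as the scale it was 1169 and 68, with a median of 0.54, so a direction here is relative to most genes and not to the amount of RNA. Pla2g4c had no probe that could be named, and neither the targeted transcript nor the labels could be checked through it.

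**Figure D1:**
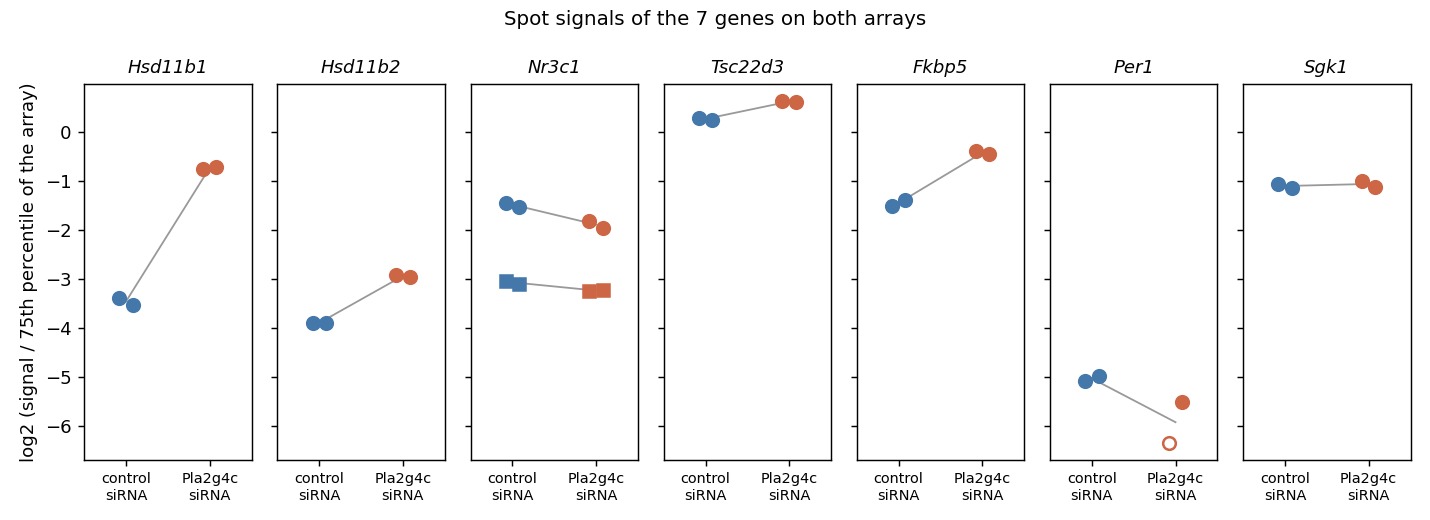
Each panel shows 1 gene, with the spots of its probe on the control array (blue) and the Pla2g4c siRNA array (orange), on the vertical axis as log2 of the spot's signal over the array's 75th percentile. Squares mark the second probe of Nr3c1, the open circle a Per1 spot not well above background, and lines join the means. The spots of Hsd11b1 lie at -3.38 and -3.52 with the control siRNA and at -0.74 and -0.70 with the Pla2g4c siRNA, while those of Sgk1 lie at like heights on both. Probes differ in their response, so heights are not compared between panels.

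Hsd11b1 was read by probe A_44_P1018957, which has 2 spots on each array. Its spots gave processed signals of 81.9 and 74.1 with the control siRNA and of 659 and 680.5 with the Pla2g4c siRNA, so that both spots of the second array lay far above both of the first. The control signal was 2.64 times the local background and the Pla2g4c siRNA signal 23.1 times. Before any scaling the ratio was 8.59, and after scaling the difference was 2.73 ± 0.21. The gap between the paired spots was 0.14 with the control siRNA and 0.05 with the Pla2g4c siRNA, against a 95th percentile of 0.40 and 0.33 over 8842 probes with 2 spots. Hsd11b1 ranked 14th from the top among the 9026 genes. Its difference ranged from 2.04 to 3.27 over 9 alternatives, the lowest under normexp background correction and the highest under spike-in scaling.

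Hsd11b2, the inactivating enzyme, gave 57.3 and 57.6 with the control siRNA and 146 and 144 with the Pla2g4c siRNA. Both of its spots were thus higher on the second array, with a scaled difference of 0.96 ± 0.22, just under 2-fold. This probe was dim, at 1.92 times the local background on the control array, and its difference was 0.51 under normexp correction, 1.09 in the authors' deposited values and 1.51 under spike-in scaling. Both enzymes were thus higher, to unequal extents. The difference of Hsd11b1 exceeded that of Hsd11b2 by 1.77 ± 0.30, a quantity in which the scaling between arrays cancels, and by 1.52 to 1.77 over the 9 alternatives.

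H6pd, the hexose-6-phosphate dehydrogenase that feeds the reductase its cofactor, differed by -0.42 ± 0.21 and was above 0 only under spike-in scaling, at 0.13. Por, the electron donor of microsomal cytochrome P450 enzymes, differed by 0.28 ± 0.20. Of 23 genes listed for steroid synthesis, metabolism, binding and efflux, 22 had a probe and 10 were measured. Of these 1 passed 2-fold upwards and 0 downwards, against 2.91% and 3.05% of all measured genes. Their median was 0.28, against -0.01 over all measured genes. The member at least 2-fold higher was Hsd11b1 itself. Next to both 11beta-dehydrogenases came Abcb1b, a P-glycoprotein that exports steroids among many substrates, at 0.82 ± 0.20, and the lowest member was Cyp21a1, the adrenal 21-hydroxylase, at -0.49 ± 0.22. The genes of adrenal synthesis Cyp11a1, Cyp11b1, Cyp17a1 and Star had no spot well above background on either array. Hsd3b2, on the same list, had 1 of 2 spots above background with the Pla2g4c siRNA (45.8, beside 3.02) and 0 with the control siRNA.

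Among 30 hydroxysteroid and related dehydrogenases, 22 were measured, and Hsd11b1 was the highest and the single member at least 2-fold higher. Hsd17b2, which oxidises estradiol and testosterone, was the lowest at -1.71 ± 0.21 (3.28-fold lower) and the single member at least 2-fold lower. The median of this list was 0.13, and over all measured genes 2.91% were at least 2-fold higher and 3.05% lower. By difference alone, the 5 measured genes nearest to Hsd11b1 over these 2 arrays were Dpep1, a membrane dipeptidase (2.73 ± 0.25), Vil1, an actin-binding protein of microvilli (2.75 ± 0.25), Actn3, an alpha-actinin (2.75 ± 0.22), Ces1a, a carboxylesterase (2.76 ± 0.24), and Pla2g2a, a secreted phospholipase A2 (2.66 ± 0.25). With 1 array per group this likeness is that of a single number.

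**Figure D2:**
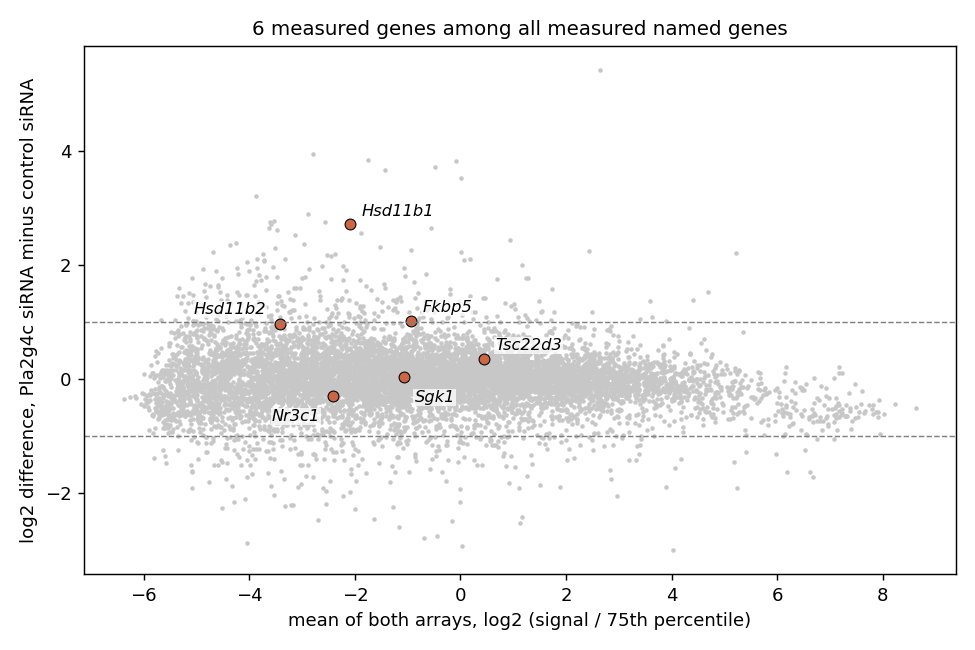
Each grey point is 1 of the 9026 measured named genes, with its mean over both arrays (log2 of signal over the 75th percentile) on the horizontal axis and the Pla2g4c siRNA minus control difference (log2) on the vertical axis. Orange points are the 6 measured genes named in the text and dashed lines mark 2-fold. Hsd11b1 lies above nearly all points at 2.73, Fkbp5 and Hsd11b2 lie beside the 2-fold line, and Tsc22d3, Sgk1 and Nr3c1 lie within the bulk.

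Nr3c1, which encodes the glucocorticoid receptor, was read by 2 probes. Probe A_44_P1003794 gave 315 and 298 with the control siRNA and 316 and 283 with the Pla2g4c siRNA, so its raw signals overlapped. Probe A_64_P269447 gave 104 and 100.2 with the control siRNA and 117 and 119 with the Pla2g4c siRNA. After scaling both probes were lower on the Pla2g4c siRNA array, by -0.41 ± 0.20 and -0.17 ± 0.21, and the gene's mean difference was -0.29 ± 0.21, which turned to 0.26 under spike-in scaling. The mineralocorticoid receptor gene Nr3c2, whose product binds the same hormones, had 1 of 4 spots well above background with the control siRNA and 2 of 4 with the Pla2g4c siRNA, and no level is given.

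The receptor's chaperones and immunophilins went both ways. Of 21 genes listed, 18 were measured, with a median of 0.19. Past 2-fold were 1 upwards and 0 downwards, against 2.91% and 3.05% of all measured genes. The member at least 2-fold higher was Fkbp5, the immunophilin that lowers the receptor's affinity for hormone, while Fkbp4, the related immunophilin that favours its transport to the nucleus, differed by 0.17 ± 0.20. Stip1, which joins Hsp70 to Hsp90, differed by 0.51 ± 0.20. The heat shock protein Hspa4 was the lowest at -0.78 ± 0.20, and the Hsp90 genes Hsp90aa1 and Hsp90ab1 differed by 0.42 ± 0.20 and -0.41 ± 0.20. Of 24 coregulators of the receptor 14 were measured, with a median of -0.16 and 0 members at 2-fold in either direction. They ranged from the corepressor Nrip1 (-0.66 ± 0.22) to the coactivator Ncoa2 (0.15 ± 0.24).

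Among the receptor targets, Fkbp5 was read by probe A_44_P532249, with signals of 301 and 327 with the control siRNA and 845 and 812 with the Pla2g4c siRNA. Both spots were higher on the second array, and the difference was 1.03 ± 0.20. It was at least 2-fold higher under 7 of 9 alternatives, the exceptions being normexp correction (0.90) and cyclic loess (0.98). Among the 7, quantile normalization gave 1.01. The alternatives on dim probes, flagged spots and the brightest probe could not move it, because its single probe was measured and had no flagged spot. Tsc22d3 encodes GILZ, a leucine zipper protein that mediates anti-inflammatory actions of glucocorticoid. Its probe A_42_P822638 gave 1049 and 1010.2 with the control siRNA and 1728 and 1690.1 with the Pla2g4c siRNA, a difference of 0.36 ± 0.20 with spots that did not overlap. It stayed above 0 and below 2-fold under all 9 alternatives, from 0.30 to 0.90.

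Sgk1 encodes a kinase that is induced by glucocorticoid and mineralocorticoid and promotes sodium uptake. Its probe A_44_P313542 gave 413 and 385 with the control siRNA and 559 and 507 with the Pla2g4c siRNA. The raw signals were higher by a factor of 1.34, close to the factor between the arrays' 75th percentiles, and after scaling the spots of the arrays overlapped with a difference of 0.04 ± 0.20. Its alternatives ran from 0.00 to 0.59, the highest under spike-in scaling. The difference of Fkbp5 exceeded that of Sgk1 by 0.98 ± 0.29 and that of Tsc22d3 by 0.67 ± 0.29, free of the scaling, so these targets of one receptor differed unequally between the arrays.

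Per1, a circadian clock gene that glucocorticoid also induces, was the dimmest of the 7. Its probe A_64_P300243 gave 25.4 and 27.0 on the control array, both well above background. With the Pla2g4c siRNA it gave 13.7, not well above background, and 24.5, well above it. The scaled spots did not overlap, with a mean difference of -0.89 ± 0.38, and the spots on the Pla2g4c siRNA array lay 0.84 apart. Because its spot at 13.7 was not well above background, Per1 does not count as measured and stands outside the counts.

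**Figure D3:**
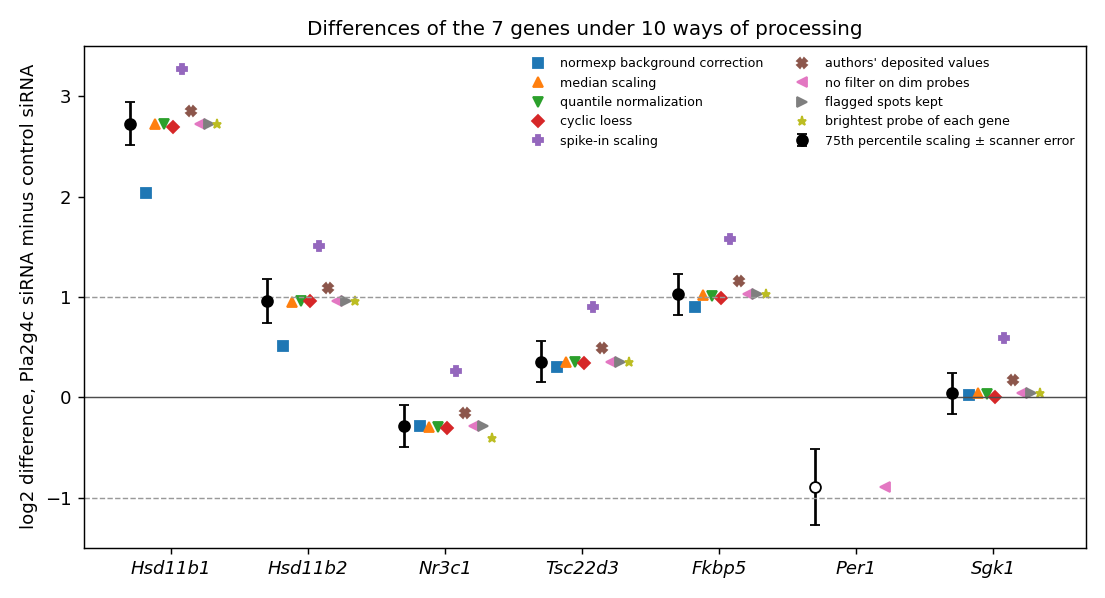
For each of the 7 genes the vertical axis gives the log2 difference, Pla2g4c siRNA minus control siRNA, under 75th percentile scaling with the scanner error (black circle and bar, open for Per1, which was not measured on both arrays) and under 9 alternatives (coloured symbols), of which Per1 has a value only without the filter on dim probes. Dashed lines mark 2-fold. Hsd11b1 lies above 2-fold throughout, from 2.04 to 3.27, Fkbp5 and Hsd11b2 lie on either side of the line, and Nr3c1 is above 0 only under spike-in scaling.

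Of 68 genes listed as induced by glucocorticoid, 65 had a probe and 43 were measured. Past 2-fold were 5 upwards and 0 downwards, against 2.91% and 3.05% of all measured genes. The median was 0.22, and 28 were above 0, against 49.0% of all. This list too was made with earlier results of these data known. The 5 were Lcn2, an iron-siderophore binding protein that inflammatory cytokines also induce (5.42 ± 0.20), Angptl4, an inhibitor of lipoprotein lipase (1.91 ± 0.21), Cited2, a transcriptional regulator (1.12 ± 0.22), the small GTPase Rhob (1.05 ± 0.22) and Fkbp5. Under normexp correction 2 of the list were at least 2-fold higher, with Cited2 at 0.43, Rhob at 0.48 and Fkbp5 at 0.90, and under spike-in scaling 11. The metallothionein Mt2A differed by 0.82 ± 0.20, and the Krüppel-like factor Klf9, which the receptor induces in many tissues, by 0.29 ± 0.20. The lowest were Foxo3, a forkhead factor of the fasting response, at -0.99 ± 0.23, and Txnip, an inhibitor of thioredoxin, at -0.81 ± 0.20. Foxo3 passed 2-fold downwards in the authors' deposited values, at -1.09, and without the filter on dim probes 2 of the list did. Tgm2, a transglutaminase, had 1 of 2 spots above background with the control siRNA (5.20 and 16.6) and 2 of 2 with the Pla2g4c siRNA (171 and 181), and does not count as measured. Dusp1 and Dusp4, likewise not measured, had 0 of 2 spots above background with the control siRNA and 2 of 2 with the Pla2g4c siRNA. Their signals were 3.17 and 7.93 against 17.2 and 19.2 for Dusp1, and 3.04 and 3.46 against 15.9 and 19.7 for Dusp4. Zbtb16, Pdk4 and Tat, used as receptor targets in other tissues, had no spot well above background on either array.

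Of 35 genes known to be repressed by glucocorticoid, most were inflammatory or matrix genes, beside hormone genes such as Crh and Pomc. Of the 35, 22 were measured, 13 past 2-fold upwards and 0 downwards, against 2.91% and 3.05% of all measured genes. The median was 1.13, and 21 of 22 were above 0, against 49.0% of all. The matrix metalloproteinases Mmp9 (3.83 ± 0.20) and Mmp13 (3.72 ± 0.21), the chemokine Ccl7 (3.52 ± 0.20) and the cytokine Tnf (2.65 ± 0.20) were the highest. Next came the chemokines Cxcl2 (2.43) and Ccl2 (2.21) and the nitric oxide synthase Nos2 (1.95 ± 0.27). The colony-stimulating factor Csf3 (1.53), the chemokines Ccl5 (1.52), Cxcl10 (1.32), Ccl20 (1.17) and Cxcl1 (1.08) and the cytokine Il1a (1.08) were also past 2-fold. The cytokine Il11 was the lowest at -0.67 ± 0.22. Most of these genes were known to be high on this array when the list was made, so the list gives no independent evidence of its direction. Over the 9 alternatives the median ran from 0.93 under normexp correction to 1.67 under spike-in scaling. Under normexp correction 10 stayed past 2-fold, with Ccl5 at 0.53, Nos2 at 0.79 and Il1a just below 2-fold, and Il1a was at 0.98 by its brightest probe.

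The factors and signals known to act on Hsd11b1 transcription did not all share one direction. Of the measured ones 11 were above 0 and 3 below, against 49.0% of all measured genes above 0. Of 22 listed, 14 were measured, with a median of 0.11. Past 2-fold were 2 upwards and 0 downwards, against 2.91% and 3.05% of all measured genes. The 2 were the cytokines Tnf and Il1a. The cytokine genes Il1b and Il6, dim on the control array and so outside the 14, were higher as well. All of these cytokine genes are also among the genes listed as repressed by glucocorticoid. They were listed with earlier results of these data known, so their direction is no independent evidence. Their part in the level of Hsd11b1 was not tested. Il1b had 0 of 9 unflagged spots above background with the control siRNA and 9 of 9 with the Pla2g4c siRNA, with an approximate lower bound of 1.96-fold. Il6 had 2 of 9 (signals of 5.50 to 15.0) and 9 of 9 (up to 69.0), and its spots did not overlap between the arrays. Cebpb and Cebpd, CCAAT/enhancer binding proteins known to act on the Hsd11b1 promoter, differed by 0.14 ± 0.20 and -0.10 ± 0.20, and the AP-1 subunit Junb was the lowest at -0.93 ± 0.20. Pparg, a nuclear receptor of fat cells, cleared background in both spots of the Pla2g4c siRNA array and in 0 of the control array. Its approximate lower bound was 4.05-fold, set by the lowest signal that cleared background on the control array (11.3). Some control spots above 11.3, such as 1 of Tyrobp at 15.9, did not clear background, so such bounds are not strict.

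A list of SGK kinases, sodium transport genes and other genes tied to these kinases had a median of -0.01 over 13 measured members of 21. Among the other genes were Tsc22d3, Foxo3, Ndrg1, Pdpk1 and Mapkap1. Atp1b1, the beta subunit of the sodium pump, was the single member at least 2-fold higher, at 2.24 ± 0.20 (4.71-fold), and 0 were at least 2-fold lower. For this list and the next ones, the 2-fold shares over all measured genes were 2.91% higher and 3.05% lower. The channel subunit Scnn1a differed by -0.73 ± 0.32, and Foxo3, a substrate of SGK kinases, was again the lowest. Of 24 clock genes 18 were measured, with a median of 0.19 and 0 members at 2-fold in either direction. They ranged from the output factor Dbp (-0.76 ± 0.20) to Cry1 (0.69 ± 0.20) and Ciart (0.99 ± 0.23), which are both repressors of the clock. Ciart was just under 2-fold and passed it under cyclic loess (1.01), in the authors' deposited values (1.12) and under spike-in scaling (1.54). Under normexp correction Ciart was at 0.36. Cry1 passed 2-fold under spike-in scaling (1.24), and Bmal2 under spike-in scaling (1.01) and without the filter on dim probes (1.11). Per2, the paralogue of Per1 and likewise listed as induced by glucocorticoid, differed by 0.32 ± 0.22. Of 21 relatives of Tsc22d3 and Fkbp5 16 were measured, with a median of 0.17, and Fkbp5 was the single member past 2-fold, 0 being at least 2-fold lower. Fkbp3 was the lowest at -0.32 ± 0.20, and Tsc22d1 differed by -0.27 ± 0.20.

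**Figure D4:**
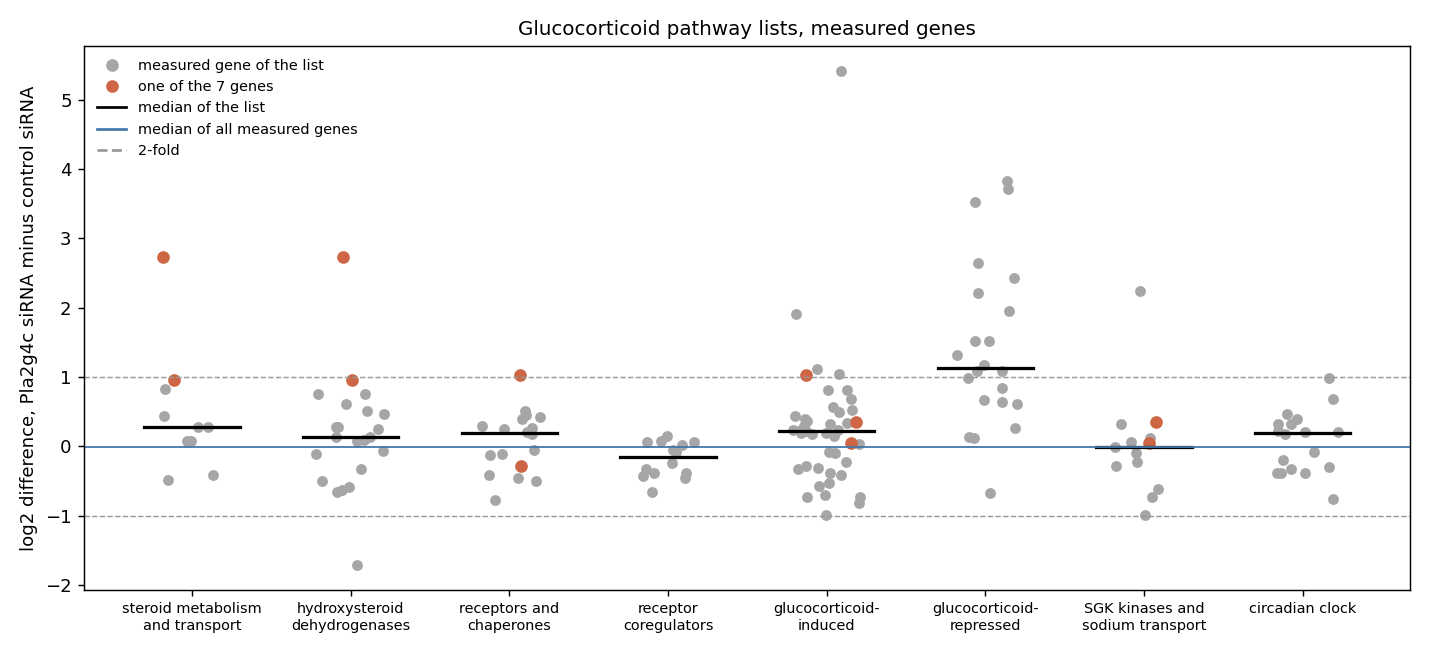
Each point is a measured gene of 1 of 8 lists on the horizontal axis, with its log2 difference, Pla2g4c siRNA minus control siRNA, on the vertical axis. Orange points are genes among the 7, black bars are list medians, the blue line is the median of all measured genes (-0.01) and dashed lines mark 2-fold. The glucocorticoid-repressed list has its median at 1.13, while the other medians lie between -0.16 and 0.28.

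Markers of cell types known for Hsd11b1, and of others that a culture could hold, were set beside these values. Of 12 adipocyte markers 10 had a probe and 0 were measured on both arrays. Fabp4 and Pparg cleared background with the Pla2g4c siRNA and not with the control siRNA, with approximate lower bounds of 11.2-fold and 4.05-fold. Lep, Lpl and Cd36 had no spot above background on either array. Adipoq and Cidec each had 0 of 2 spots above background with the control siRNA and 1 of 2 with the Pla2g4c siRNA, where their signals were higher, at 11.3 to 14.0 against 2.65 to 2.73 for Adipoq and 14.6 to 20.7 against 2.72 to 2.92 for Cidec. Of 10 hepatocyte markers 2 were measured, with Serpina1 at -0.90 ± 0.20 and Tf at 0.45 ± 0.25, or -0.03 under its lowest alternative. Their summed level (in units of the array's 75th percentile) was 2.09 with the control siRNA and 1.14 with the Pla2g4c siRNA. Alb and Ttr had no spot above background. Apoa1 had 1 of 2 spots above it with the control siRNA (208, beside 3.08) and 0 with the Pla2g4c siRNA. Of 12 myeloid markers 7 were measured. Their summed level was 3.50 with the control siRNA and 12.7 with the Pla2g4c siRNA. The MHC class II chaperone Cd74 was the single member at least 2-fold higher (2.24 ± 0.20), against 2.91% of all measured genes. The others measured ran from Cd68 (-0.39 ± 0.21) to Lyz2 (0.60, and -0.09 under normexp correction). Most of the rise in the sum was therefore that of Cd74. Tyrobp had 1 of 2 spots above background with the control siRNA and 2 of 2 with the Pla2g4c siRNA. The leukocyte gene Ptprc had 0 of 11 unflagged spots above background on either array, and Itgam had no spot above background. Of 10 fibroblast markers 3 were measured, with a summed level of 0.37 and 0.41 and a median of 0.13, and Dcn and Lum had no spot above background. Pdgfra, a growth factor receptor of fibroblasts, had 1 of 9 unflagged spots above background with the control siRNA (signals of 6.88 to 15.7) and 9 of 9 with the Pla2g4c siRNA (17.9 to 27.2), so its spots did not overlap. Of 12 epithelial markers 10 were measured, with a median of -0.31, from Krt5 (-1.72 ± 0.20) to Epcam (1.03 ± 0.20), and a summed level of 549 with the control siRNA and 249.6 with the Pla2g4c siRNA. That sum was almost all the keratin genes Krt14 (345 and 176) and Krt5 (186 and 56.5), and the other 8 summed to 18.1 and 16.9, with differences from -0.63 to 1.03. The part of these differences in the level of Hsd11b1 was not tested, and fewer cells of a kind and less RNA per cell cannot be told apart in bulk RNA.

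Promoter sequence from RefSeq (build GRCr8) was at hand for 5 of the 7 genes, namely Nr3c1, Tsc22d3, Fkbp5, Per1 and Sgk1, in 10 windows of 250 bases before an annotated start. Each was searched on both strands for 9 short motifs. The single arm of the glucocorticoid receptor's site, AGAACA, lay in 0 of the 10 windows and in 17.5% of all 33469 windows of that length, and the full site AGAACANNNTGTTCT, which holds that arm, in 0 of 10 and 0.012% of all. The C/EBP core TTGCNNAA (9.22% of all windows), the NF-kB site GGGNNTTTCC (1.3%), the AP-1 site TGANTCA (6.34%), the E-box CACGTG (5.59%) and the cyclic AMP response element TGACGTCA (1.59%) were in 0 of the 10 as well. Its first 5 bases, TGACG (18.2%), was found in 1 window, and the box TATAAA (12.9%) in 3. Known sites of these genes that lie farther away are outside such windows. The windows of Fkbp5 and of 1 start of Tsc22d3 are shown because these were the receptor targets with the higher signal on the Pla2g4c siRNA array, one with no match and one with several. Both are on the minus strand and are written 5′ to 3′ along the gene, with matches in capitals. The Fkbp5 window is chr20:6543556-6543805 and the Tsc22d3 window is chrX:109010035-109010284, in which TGACG starts 75 and 65 bases before the annotated start and TATAAA 44 bases before it.
Fkbp5: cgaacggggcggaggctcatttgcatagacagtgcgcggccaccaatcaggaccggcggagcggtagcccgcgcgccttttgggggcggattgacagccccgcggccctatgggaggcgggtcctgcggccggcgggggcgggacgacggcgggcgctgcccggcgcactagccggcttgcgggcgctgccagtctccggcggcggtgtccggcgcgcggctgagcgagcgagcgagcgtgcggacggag
Tsc22d3: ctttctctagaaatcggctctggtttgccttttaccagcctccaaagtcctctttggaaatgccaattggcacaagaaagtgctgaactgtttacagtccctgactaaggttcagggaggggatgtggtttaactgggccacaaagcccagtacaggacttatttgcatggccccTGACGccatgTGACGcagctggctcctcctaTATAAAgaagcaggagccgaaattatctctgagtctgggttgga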

How the data were processed

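RNA of the 2 groups, named from the knockdown label of each sample, was measured on 1 Agilent one-colour rat array each. The scanner files hold linear intensities that the authors extracted with Agilent's Feature Extraction software, version 10.10.1.1 in the headers of the files and 10.10 in the submitters' processing notes. Its processed signal has had background removed and a trend over the array taken out, per the file headers, with no step between arrays. The software's other columns used, flags of 0 or 1, are as deposited. The authors' deposited normalized intensities equal each processed signal times 1.77 (control) or 1.50 (Pla2g4c siRNA), and the labels and headers do not say how those constants were found.

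Signals were divided by the array's 75th percentile and set to log2. Spots with an outlier flag on either array were left out, the spots of a probe were averaged, and a probe counted as measured where every remaining spot was well above background on both arrays (16840 of 30367). A gene's value is the mean of its measured probes, named through RefSeq accessions (18006 probes, 59.3%). A bound was given where no spot was above background on 1 array. It was taken against that array's lowest signal above background, or the probe's own mean there if higher. Such a bound is approximate, because some brighter spots did not clear background. With 1 array per group nothing was tested, and precision is limited by that number of arrays. Genes were counted at 2-fold. The 7 genes, the 17 lists, of which the first is the 7 genes, and the alternatives were chosen with earlier results of these data known. Named were all 7 genes, list members past 2-fold, the extremes of each list, bounds past 2-fold and the 5 genes nearest in difference to Hsd11b1, and a few others were named for their role after their values were seen. The planned mean spot signal for normexp (offset 50) was replaced by the median signal. Steps were tested on simulated data. Python 3.11.15, numpy 2.4.6, pandas 2.3.3, matplotlib 3.10.9, R 4.3.3 and limma 3.58.1 were used.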

Additional observations from a re-analysis of the deposited data

How the results depend on the processing

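The 9 alternatives were normexp background correction, median, quantile, cyclic loess and spike-in scaling, the authors' deposited values, no filter on dim probes, flagged spots kept and the brightest probe of each gene. Among the 7, 2 passed 2-fold upwards and 0 downwards, beside 2.91% and 3.05% of all measured genes. The count upwards was 1 under normexp correction, 1 under cyclic loess, 3 under spike-in scaling and 3 in the authors' deposited values. Under any of the 9, 0 passed 2-fold downwards. The counts over all named genes, 263 higher and 275 lower, became 117 and 154 under normexp correction, 1169 and 68 under spike-in scaling, and 539 and 765 without the filter on dim probes, over 15159 genes and with a median of -0.16. Of 55 values of the 7 genes under an alternative, 47 moved by less than the scanner error, and 0 of those past 2-fold changed sign. The other 8 were the 6 measured genes under spike-in scaling and both 11beta-dehydrogenases, dim on the control array, under normexp correction. Part of the 47 could not move. For a gene with 1 measured probe and no flagged spot, the alternatives on dim probes, flagged spots and the brightest probe return the same value. The single value of Per1 is likewise unchanged, and median scaling shifts all genes alike. No paired analysis was possible because each group has 1 array.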

Other observations

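Other nuclear receptors of the steroid and related families had a median of 0.02 over 15 measured of 30 listed. Of the 15, 0 were at 2-fold in either direction, against 2.91% upwards and 3.05% downwards of all measured genes. Outside these 15, Pparg cleared background with the Pla2g4c siRNA only, with an approximate lower bound of 4.05-fold. The orphan receptor gene Nr2f1 gave 13.3 and 17.9 with the control siRNA, 1 of 2 spots above background, and 41.0 and 44.6 with the Pla2g4c siRNA. The measured ones ranged from the vitamin D receptor gene Vdr (-0.82 ± 0.21) to Ppara (0.74 ± 0.33), a receptor of fatty acids. Ppara was dim on the control array, and its difference was 0.04 under normexp correction. The estrogen and progesterone receptor genes Esr1, Esr2 and Pgr had no spot well above background on either array. Nr2f6, another orphan receptor, differed by -0.38 ± 0.20 and Rxra, the common partner of many receptors, by -0.19 ± 0.21.

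Of the dehydrogenases listed beside Hsd11b1, Hsd17b1, which forms estradiol, differed by 0.61 ± 0.22, opposite in sign to the -1.71 ± 0.21 of the estradiol-oxidising Hsd17b2. Both were read by 1 probe each, and Hsd17b2 was at least 2-fold lower under all 9 alternatives. Hsd17b1 was dim on the control array, and its difference ran from 0.16 under normexp correction to 1.16 under spike-in scaling.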
